A study of Mus musculus with 2 samples.

Results

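The receptor tyrosine kinase genes Kit, Pdgfra, Pdgfrb, Axl, Fgfr1, Igf1r, Insr, Epha2 and Met were examined in MS1 cells, mouse endothelial cells of the pancreatic islet that were immortalised and grow as a line. All 9 genes had a row in both deposited tables, among 11405 genes in all. The group was selected on the values of Kit, which is about 4-fold lower in the knockdown table, and filled up with receptors outside the VEGF and Tie groups, so the values of Kit are a description and not a tested finding. The group called knockdown below is MS1 cells infected with a lentivirus that carries a short hairpin RNA against Pspc1, with the genotype given as Pspc1 knockdown. Its comparison group is MS1 cells infected with a lentivirus carrying a hairpin against LacZ, a bacterial gene, with the genotype given as wt. Both groups are thus hairpin-carrying cells of the same line, with 1 library of poly-A RNA each, and no uninfected cells enter this comparison.

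Receptor tyrosine kinases are membrane proteins that bind a growth factor outside the cell, pair up and phosphorylate each other on tyrosines inside it. Adaptor proteins dock on those tyrosines and pass the signal to the Ras and ERK cascade and to the PI3K and AKT cascade, while ubiquitin ligases, phosphatases and proteases at the cell surface end it. KIT, the receptor of stem cell factor, is best known from blood stem cells, mast cells, melanocytes and germ cells, and is also found on some endothelial cells.

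Read numbers were inferred from steps in the deposited values. By these the knockdown library held 53518762 reads on the tabled genes and the LacZ library 64009912. Values are those deposited by the authors, and 1 step, taken as 1 read, was 0.0197 in the knockdown library and 0.0153 in the LacZ library. Pspc1 itself had a value of 3.78 in the knockdown library (192 reads) and 28.8 in the LacZ library (1880 reads), 7.62-fold lower in the knockdown. Endothelial identity was present in both libraries. Values were at hand for 13 of 14 endothelial marker genes, which summed to 7632 in the knockdown library and 7382 in the LacZ library, and none of them differed 2-fold. Within that sum Kdr (-0.94), Tek (-0.89), Sox18 (-0.80) and Cdh5 (-0.75) had negative log2 ratios of knockdown over LacZ, and Esam a positive one (0.59). For markers of other cells, values were at hand for 2 of 13 haematopoietic and mast cell genes, 1 of 9 fibroblast genes, 2 of 7 epithelial genes, and 0 of 10 mural and 0 of 8 islet endocrine genes. The haematopoietic pair was Cd34, which endothelium also expresses, and Hdc, and it summed to 2873 in the knockdown library and 2697 in the LacZ library, nearly all of it Cd34. Hdc, the histamine-forming enzyme gene of mast cells, was below the minimum explained below, with 1.16 in the knockdown library and 2.1 in the LacZ library (95% counting interval of the log2 ratio -1.32 to -0.40). Apart from Cd34 (log2 ratio 0.09), Hdc was the only gene of this list with values, on 59 reads in the knockdown library and 137 in the LacZ library. Mast cells also express Kit, and the part of such cells in the Kit result was not tested. The fibroblast gene Pdpn had 8.02 in the knockdown library and 8.11 in the LacZ library. The epithelial keratins Krt18 and Krt19 summed to 152.1 in the knockdown library and 47.7 in the LacZ library. Krt19 met the 2-fold rule explained below, with 115.2 in the knockdown library and 23.8 in the LacZ library, and the part of what these keratins mark in the results below was not tested. In such bulk RNA, fewer cells with a transcript and less transcript per cell cannot be told apart.

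With 1 library per group no spread between cultures can be measured, and no difference below has a replicate check or a p-value. Ratios are log2 of knockdown over LacZ after adding 0.5 to each value, which understates the change of low genes. A gene met the size rule, and is called lower or higher, where its 2 values averaged 5 or more and differed by 2-fold or more on that scale. Genes that average 5 or more are called measurable below. The 95% counting intervals are exact conditional binomial intervals of the log2 ratio without the added 0.5. They cover counting error only. Of 8633 measurable genes, 166 (1.92%) were lower and 83 (0.961%) were higher.

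Kit, the stem cell factor receptor, and Fgfr1, a fibroblast growth factor receptor, were the members that met the size rule, both lower. They are 2 of the 6 measurable members, and no member met the rule as higher. Because Kit chose the group, that count is given beside the 1.92% of all genes without being read as a result. The other 4 measurable members, Epha2, Igf1r, Insr and Met, lay within 2-fold. Pdgfra, Pdgfrb and Axl had means between 0.912 and 1.55 and were too low for the rule.

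**Figure D1:**
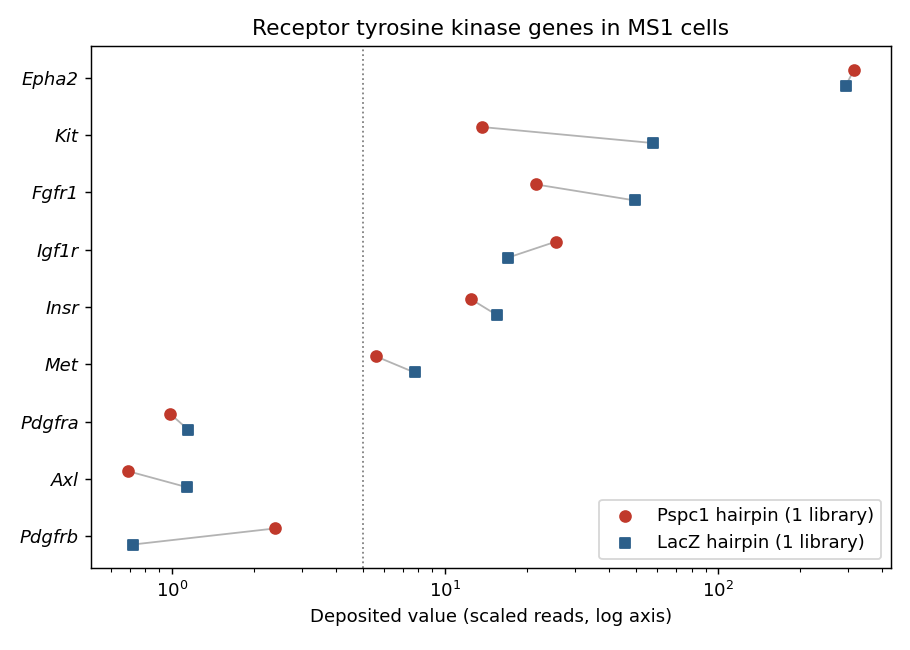
Deposited value (horizontal, log axis) of each receptor gene in the knockdown library (circles, above) and the LacZ library (squares, below), 1 library each, with the minimum mean of 5 as a dotted line. Kit (13.7 in the knockdown library and 57.9 in the LacZ library) and Fgfr1 (21.5 in the knockdown library and 49.5 in the LacZ library) show the widest gaps among the 6 genes to the right of the line, and Epha2 lies far above the others in both libraries.

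Kit (ENSMUSG00000005672, mm10 chromosome 5, 75574916 to 75656722, plus strand, 21 merged exons) had a value of 13.7 in the knockdown library and 57.9 in the LacZ library. These values rested on 694 reads in the knockdown library and 3779 in the LacZ library. The gene was 4.24-fold lower in the knockdown, a log2 ratio of -2.04 with a counting interval of -2.20 to -1.97. Among the 8633 measurable genes, 6 had a lower ratio than Kit. Its mean of 35.8 is below 50, so a rule with that minimum, which asks for more abundant transcripts, leaves it out. No other gene in the GENCODE annotation shares exon bases with Kit.

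The bases just before the Kit start are shown with bases before the RefSeq starts of Epha2 and Igf1r. These are the most abundant member and the one with the highest ratio among the 6 measurable members. The measurable member with the lowest ratio can thus be set beside them. The letters come from RefSeq promoter windows (build GRCm38.p6, 250 bases before the RefSeq start) and are cut where the GENCODE annotation places an earlier start. For Epha2 and Igf1r GENCODE places the start later, at 141301240 and 67952827, so their stretches end short of it and are not at the same position as that of Kit. Capitals mark GC boxes, GGGCGG or its reverse complement CCGCCC.
Kit, chr5:75574737-75574915, plus strand: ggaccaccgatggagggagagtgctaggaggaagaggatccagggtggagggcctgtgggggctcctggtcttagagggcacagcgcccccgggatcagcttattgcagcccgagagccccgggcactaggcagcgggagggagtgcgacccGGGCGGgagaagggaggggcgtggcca
Epha2, chr4:141300971-141301220, plus strand: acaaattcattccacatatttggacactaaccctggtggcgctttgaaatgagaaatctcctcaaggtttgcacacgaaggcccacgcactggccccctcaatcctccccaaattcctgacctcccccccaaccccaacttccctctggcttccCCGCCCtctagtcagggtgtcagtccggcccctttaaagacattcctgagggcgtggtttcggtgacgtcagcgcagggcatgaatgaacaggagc
Igf1r, chr7:67952007-67952256, plus strand: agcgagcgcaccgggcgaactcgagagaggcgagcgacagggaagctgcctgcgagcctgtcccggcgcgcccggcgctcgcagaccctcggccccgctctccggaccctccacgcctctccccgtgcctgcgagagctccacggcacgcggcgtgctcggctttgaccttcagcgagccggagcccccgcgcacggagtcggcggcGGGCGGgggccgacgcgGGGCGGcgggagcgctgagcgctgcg

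All 3 sequences held a GC box, 1 in Kit, 1 in Epha2 and 2 in Igf1r. A search of both strands of the 250 bases for a GATA box (AGATAA or TGATAA) and for an E-box (CANNTG) found neither in the window of Kit, nor in those of Epha2, Igf1r and Axl. The motifs do not overlap in any sequence shown. Over 27025 mouse genes with a RefSeq window, 17.0% held a GATA box, 66.2% an E-box and 32.7% a GC box in the same 250 bases. Pdgfra and Met each held 1 E-box, and Met 3 GC boxes. The Kit window was 70.8% G and C, against 55.6% for Epha2, 77.6% for Igf1r and 74.0% for Met. Fgfr1, Insr and Pdgfrb are not shown. These matches describe letters and not bound sites.

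Fgfr1 (ENSMUSG00000031565, chromosome 8, 25513654 to 25575718, plus strand) had a value of 21.5 in the knockdown library and 49.5 in the LacZ library, on 1090 reads for the knockdown and 3233 for LacZ. It was 2.31-fold lower in the knockdown, a log2 ratio of -1.19 with a counting interval of -1.31 to -1.11, and 73 genes had a lower ratio. Its exons share 164 bases with an annotated antisense transcript, and reads of both could not be told apart without strand information.

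Epha2 (ENSMUSG00000006445, chromosome 4, 141301240 to 141329384, plus strand), a receptor for membrane-bound ephrin-A ligands, was the most abundant member. It had 315.1 in the knockdown library and 293.2 in the LacZ library, a log2 ratio of 0.10 (interval 0.07 to 0.13), which became 0.0002 when both libraries were scaled to equal total reads. Its level was therefore close to equal in both libraries while Kit and Fgfr1 differed.

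Igf1r and Insr encode the sister receptors for insulin-like growth factors and insulin, which also pair with each other. Igf1r (ENSMUSG00000005533, chromosome 7, 67952827 to 68233668, plus strand) had 25.4 in the knockdown library and 16.9 in the LacZ library, a log2 ratio of 0.57 (interval 0.47 to 0.70) that did not meet the size rule. Insr (ENSMUSG00000005534, chromosome 8, 3122061 to 3279617, minus strand) had 12.4 in the knockdown library and 15.5 in the LacZ library, a log2 ratio of -0.31 (interval -0.46 to -0.17). The sister receptors thus lay on opposite sides of equality as deposited. After a correction for gene length and GC content Igf1r reached a log2 ratio of 1.02 and Insr had 0.13. Met (ENSMUSG00000009376, chromosome 6, 17463800 to 17573980, plus strand), the receptor of hepatocyte growth factor, had 5.59 in the knockdown library and 7.74 in the LacZ library, a log2 ratio of -0.43 (interval -0.68 to -0.26).

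Length matters here because long genes as a whole had lower ratios. Across measurable genes, the median log2 ratio was -0.32 in the tenth with the longest exons (median 11503 bp) and 0.18 in the tenth with the shortest (median 1269.5 bp). Merged exons of the members ran from 4674 bp for Epha2 to 16791 bp for Igf1r, with 8911 bp for Kit and 9875 bp for Fgfr1. With the correction for length and GC content Kit had a log2 ratio of -1.82 and Fgfr1 of -1.05, both still past 2-fold.

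**Figure D2:**
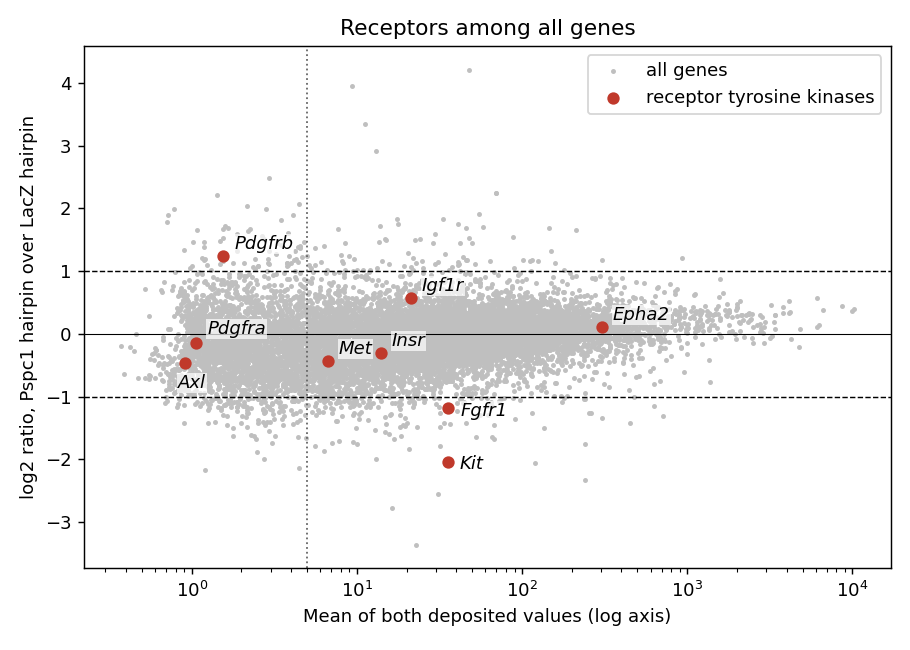
Log2 ratio of knockdown over LacZ (vertical) against the mean of both values (horizontal, log axis) for 11405 genes in grey and the 9 receptors in red, with dashed lines at 2-fold and a dotted line at the minimum mean of 5. Kit (-2.04) and Fgfr1 (-1.19) lie below the lower dashed line, and Epha2 lies near 0 at the right.

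The platelet-derived growth factor receptors and Axl were barely detected. Pdgfrb, the receptor that marks pericytes, had 2.38 in the knockdown library (121 reads) and 0.720 in the LacZ library (47 reads), a log2 ratio of 1.24 on the scale with 0.5 added and a counting interval of 1.23 to 2.24 without it. Pdgfra had 0.985 in the knockdown library and 1.15 in the LacZ library, on 50 reads for the knockdown and 75 for LacZ, with a counting interval of -0.77 to 0.31 that spans equality. Axl, a receptor for GAS6, had 0.689 in the knockdown library and 1.13 in the LacZ library, on 35 reads for the knockdown and 74 for LacZ. At these depths the counting interval of each of the 3 was over 1 log2 unit wide.

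Levels of different receptors were compared per kb of merged exons. In the knockdown library the order was Epha2 (67.4 per kb), Fgfr1 (2.17), Kit (1.53), Igf1r (1.51), Insr (0.904), Met (0.729), Pdgfrb (0.435), Axl (0.137) and Pdgfra (0.0983). In the LacZ library it was Epha2 (62.7 per kb), Kit (6.50), Fgfr1 (5.02), Insr (1.13), Igf1r (1.01), Met (1.01), Axl (0.225), Pdgfrb (0.131) and Pdgfra (0.115). Kit was thus below Fgfr1 in the knockdown library and above it in the LacZ library. Exact Poisson intervals of neighbours in the order overlapped for Kit with Igf1r and for Axl with Pdgfra in the knockdown library, and for Insr with Igf1r, Igf1r with Met, and Pdgfrb with Pdgfra in the LacZ library. The summed level of the 9 receptors was 74.9 per kb in the knockdown library and 77.9 per kb in the LacZ library. Kit held 2.05% of that sum in the knockdown library and 8.35% in the LacZ library, and Epha2 held 90.0% in the knockdown library and 80.6% in the LacZ library. Per kb of the longest annotated transcript, which for Kit is 5241 bp, the order was the same in the knockdown library, and in the LacZ library Pdgfra and Pdgfrb changed places.

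Kit lies in a cluster of receptor genes on chromosome 5, between Pdgfra and the VEGF receptor gene Kdr. Within 1 Mb on either side 13 genes had values, Kit included, and 7 of them were measurable. Apart from Kit, none of these met the size rule, which is not read as a result beside the 1.92% lower and 0.961% higher of all measurable genes. Kdr, which starts 403.5 kb beyond the start of Kit, had 77.3 in the knockdown library and 148.9 in the LacZ library, a log2 ratio of -0.94 that passed 2-fold (-1.05) only when scaled by total reads. The other 5 had log2 ratios between -0.30 and -0.15. They were Fip1l1 (52.0 in the knockdown library and 57.9 in the LacZ library), Chic2 (99.3 in the knockdown library and 116.2 in the LacZ library), Srd5a3 (39.7 in the knockdown library and 47.5 in the LacZ library), Tmem165 (91.1 in the knockdown library and 112.1 in the LacZ library) and Exoc1 (26.0 in the knockdown library and 30.1 in the LacZ library). Pdgfra, whose start lies upstream of Kit at -422.6 kb, was among the low genes, as was Clock, a circadian transcription factor gene, with 1.46 in the knockdown library and 4.08 in the LacZ library.

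**Figure D3:**
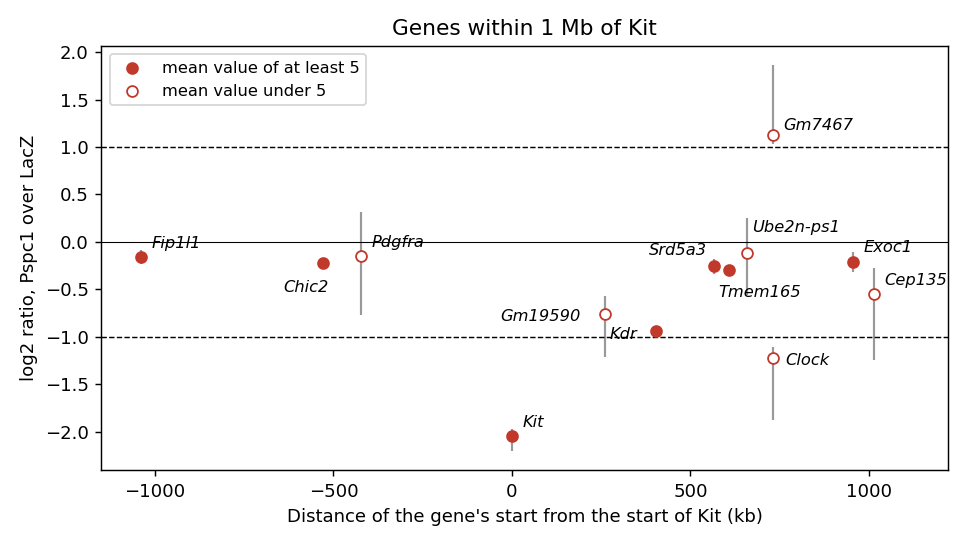
Log2 ratio of knockdown over LacZ (vertical) against the distance of each gene's start from that of Kit in kb (horizontal), with 95% counting intervals as bars; open points have a mean value under 5. Kit lies at -2.04, its neighbour Kdr at -0.94, and the other 5 filled points between -0.30 and -0.15.

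By the closest log2 ratio over the 2 libraries, the measurable genes most like Kit were Kti12, Angpt2, Kif26a and Mtcl1. Kti12 had 13.2 in the knockdown library and 56.0 in the LacZ library, a log2 ratio of -2.05. Angpt2, a ligand of the Tie2 receptor, had 46.1 in the knockdown library and 193.6 in the LacZ library (-2.06). Kif26a had 4.96 in the knockdown library and 21.3 in the LacZ library (-1.996), and Mtcl1 2.42 in the knockdown library and 10.1 in the LacZ library (-1.86). With a single pair of values per gene this likeness is no more than a shared ratio.

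Ligands of the members went both ways. Of 21 ligand genes 12 had values, 7 were measurable, and of these 1 was higher and none lower (median log2 ratio -0.07, against -0.01 for all genes, of which 0.961% were higher). The higher one was Gas6, which encodes the ligand of AXL and its sister receptors, with 33.4 in the knockdown library and 11.6 in the LacZ library, a log2 ratio of 1.49 (interval 1.41 to 1.66). It stayed past 2-fold under each scaling, pseudocount and correction tried, at 1.21 to 1.54, but lay under a minimum mean of 50, which leaves 0 higher ligand genes. Axl was too low for a call, and the other GAS6 receptor genes Mertk (71.2 in the knockdown library and 90.7 in the LacZ library) and Tyro3 (12.4 in the knockdown library and 16.5 in the LacZ library) lay within 2-fold. Pros1, which encodes protein S, another ligand of these receptors, had 10.05 in the knockdown library and 18.1 in the LacZ library, a log2 ratio of -0.81.

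Kitl, which encodes stem cell factor, the ligand of KIT, had 1.18 in the knockdown library and 3.88 in the LacZ library, on 60 reads for the knockdown and 253 for LacZ. Its ratio without the added 0.5 was 3.28-fold lower, with a counting interval of -2.14 to -1.30 log2, but at a mean of 2.53 it was not measurable by the rule. With 0.5 added the log2 ratio of Kitl was -1.38. It ran from -1.63 to -0.52 over the scalings, pseudocounts and correction tried, so its size is not fixed. Ligand and receptor both had lower values in the knockdown library, the ligand on few reads. The ligand genes of the PDGF receptors were far more abundant than those receptors, with 239.4 in the knockdown library and 212.3 in the LacZ library for Pdgfb and 174.3 in the knockdown library and 121.1 in the LacZ library for Pdgfa, whose exons share 813 bases with an antisense transcript. The ephrin gene Efna1, a ligand of EPHA2, had 46.0 in the knockdown library and 51.3 in the LacZ library. Of 15 genes whose products bind or process ligands, 11 had values, 8 were measurable and 0 met the rule. That 0 is not read as a result, since 1.92% of all measurable genes were lower and 0.961% higher. The largest ratio among the measurable ones was that of Sdc4, a heparan sulphate proteoglycan that binds fibroblast growth factors (41.1 in the knockdown library and 24.9 in the LacZ library).

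Of 44 other receptor tyrosine kinase genes 18 had values, 10 were measurable and 0 met the size rule (median log2 ratio -0.09). Over all measurable genes 1.92% were lower and 0.961% higher, so a count of 0 among 10 is not read as a result. Because Kit chose its group, no contrast with it is drawn. The collagen receptor gene Ddr1 had 66.5 in the knockdown library and 36.8 in the LacZ library, a log2 ratio of 0.85. Ephb6, which encodes an ephrin receptor without kinase activity, had 8.77 in the knockdown library and 4.24 in the LacZ library, a log2 ratio of 0.97 that reached 1.004 with a trimmed mean of M values and 1.01 with median-of-ratios scaling. The abundant receptor genes Ephb4 (366.4 in the knockdown library and 337.5 in the LacZ library), Ptk7 (201.0 in the knockdown library and 213.5 in the LacZ library) and Erbb2 (48.1 in the knockdown library and 51.2 in the LacZ library) lay near equality. Ryk had 50.6 in the knockdown library and 40.1 in the LacZ library, and Lmtk2 75.1 in the knockdown library and 85.3 in the LacZ library. Below the minimum, Epha1 had 2.42 in the knockdown library and 0.552 in the LacZ library, and its exons share 236 bases with Zyx on the opposite strand. Aatk had 2.46 in the knockdown library and 5.72 in the LacZ library. Of the 5 VEGF and Tie receptor genes none met the rule, which beside the same shares of all genes is likewise not read as a result. After Kdr the lowest ratio among them was that of Tek, with 7.13 in the knockdown library and 13.6 in the LacZ library (-0.89).

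**Figure D4:**
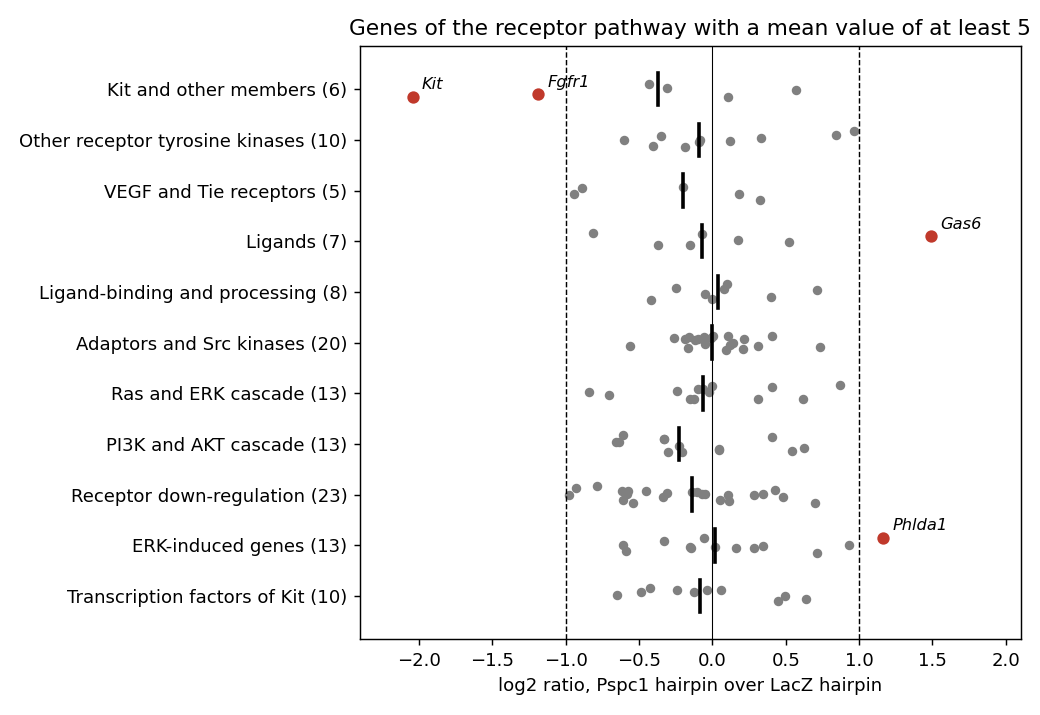
Log2 ratio of knockdown over LacZ (horizontal) of each measurable gene given here, by its part in the receptor pathway (rows, with the number of genes); black bars are medians, dashed lines mark 2-fold and genes past them are red and named. Outside the row of Kit and Fgfr1 the plotted genes past 2-fold are Gas6 (1.49) and Phlda1 (1.17).

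Adaptor proteins link receptors to their cascades. Of 31 adaptor genes 26 had values, 20 were measurable and 0 met the rule, with a median log2 ratio of -0.004, 10 below 0 and 10 above. Beside the 1.92% lower and 0.961% higher of all measurable genes, this count of 0 is not read as a result. Grb2, the adaptor that brings the Ras activator SOS to receptors, had 156.3 in the knockdown library and 161.9 in the LacZ library. Shc1 had 330.5 in the knockdown library and 285.5 in the LacZ library, and Ptpn11, the phosphatase SHP2 that many receptors need for ERK signalling, 255.5 in the knockdown library and 273.5 in the LacZ library. The farthest from equality among the more abundant was Grb10, an inhibitory adaptor of the insulin and IGF1 receptors, with 29.6 in the knockdown library and 17.6 in the LacZ library (log2 ratio 0.73). Dok1 had 105.1 in the knockdown library and 79.3 in the LacZ library, Src 257.4 in the knockdown library and 207.8 in the LacZ library, and Crkl 68.8 in the knockdown library and 82.6 in the LacZ library. Yes1, a Src family kinase gene, had 0.532 in the knockdown library and 2.24 in the LacZ library, on 27 reads for the knockdown and 146 for LacZ, below the minimum.

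For the Ras and ERK cascade 16 genes are given, and of the 13 measurable ones none met the rule (median log2 ratio -0.06). Over all measurable genes 1.92% were lower and 0.961% higher, so 0 among 13 is not read as a result. Rps6ka2, which encodes an ERK-activated kinase, had 136.2 in the knockdown library and 74.2 in the LacZ library, a log2 ratio of 0.87 that became 1.02 with the length and GC correction. Rras had 69.7 in the knockdown library and 45.1 in the LacZ library. The ERK gene Mapk3 had 376.7 in the knockdown library and 284.5 in the LacZ library, a log2 ratio of 0.40.

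For the PI3K and AKT cascade 17 genes are given, and of the 13 measurable ones none met the rule (median log2 ratio -0.23). With 1.92% lower and 0.961% higher over all measurable genes, 0 among 13 is again not read as a result. The kinase genes Akt1 (760.9 in the knockdown library and 1161 in the LacZ library) and Akt2 (92.7 in the knockdown library and 63.5 in the LacZ library) had log2 ratios of -0.61 and 0.54, neither past 2-fold. Pdpk1, the kinase that activates AKT, had 20.4 in the knockdown library and 32.5 in the LacZ library, and Gsk3b, an AKT substrate, 18.2 in the knockdown library and 28.6 in the LacZ library. The median of these 13 genes was -0.06 after the length and GC correction.

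Genes that end receptor signals had a median log2 ratio of -0.14, and none of 23 measurable ones, of 30 in the list, met the rule. As 1.92% of all measurable genes were lower and 0.961% higher, 0 among 23 is not read as a result. The lowest ratio among the measurable ones was that of the protease gene Adam10 (-0.98). It had 9.40 in the knockdown library and 19.0 in the LacZ library, 2.02-fold lower without the added 0.5. Sh2b3, which encodes LNK, an adaptor that restrains KIT and cytokine receptors in blood cells, had 96.0 in the knockdown library and 183.2 in the LacZ library, a log2 ratio of -0.93. The protease gene Adam17 had 16.9 in the knockdown library and 29.5 in the LacZ library. The protease ADAM17 sheds KIT and other receptors from the cell surface, and exons of its gene share 311 bases with Iah1. The ubiquitin ligase genes Nedd4 (132.7 in the knockdown library and 198.7 in the LacZ library) and Cbl (17.4 in the knockdown library and 23.9 in the LacZ library) had log2 ratios of -0.58 and -0.45. Sh2b3 passed 2-fold (-1.03) when scaled by total reads. Cd2ap, below the minimum, had 1.75 in the knockdown library and 4.37 in the LacZ library.

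Genes that ERK signalling induces went both ways. Of 13 measurable ones, of 17 in the list, 1 was higher and none lower (median log2 ratio 0.02), where 0.961% of all measurable genes were higher. It was Phlda1, with 19.8 in the knockdown library and 8.57 in the LacZ library, a log2 ratio of 1.17 (interval 1.06 to 1.36). It fell short of 2-fold with a pseudocount of 5 (0.87) or the length and GC correction (0.995), which leaves 0 of 13, and it lay under a minimum mean of 20 or 50. Its exons share 727 bases with an annotated transcript on the opposite strand. Ier3 had 280.0 in the knockdown library and 146.9 in the LacZ library, and the ERK phosphatase gene Dusp5 206.6 in the knockdown library and 125.7 in the LacZ library. Dusp6, a second ERK phosphatase gene, had 52.1 in the knockdown library and 65.6 in the LacZ library, and Fosl1 40.1 in the knockdown library and 60.6 in the LacZ library. Of the 2033 exon bases of Fosl1, 1163 are shared with Ccdc85b on the opposite strand. Exons of Dusp5 share 547 bases with an antisense transcript.

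Transcription factors known to act on Kit in blood and other lineages were also examined. Values were at hand for 10 of 14, all measurable, and 0 met the size rule (median log2 ratio -0.08). Beside 1.92% lower and 0.961% higher over all measurable genes, 0 among 10 is not read as a result. GATA2 and the basic helix-loop-helix factors TAL1 and LYL1 form a complex with LMO2 and LDB1 on DNA. Gata2 had 103.1 in the knockdown library and 72.9 in the LacZ library, Tal1 192.5 in the knockdown library and 140.9 in the LacZ library, and Lyl1 86.6 in the knockdown library and 55.5 in the LacZ library, so these genes had higher values where Kit had its lower one. Their log2 ratios lay between 0.45 and 0.64 and stayed above 0 under each scaling. Lmo2 had 31.8 in the knockdown library and 42.9 in the LacZ library, and Ldb1 290.5 in the knockdown library and 298.5 in the LacZ library. Sp1, which binds GC boxes, had 29.9 in the knockdown library and 47.3 in the LacZ library, a log2 ratio of -0.65, and Erg, an endothelial ETS factor gene, 85.0 in the knockdown library and 119.4 in the LacZ library.

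**Figure D5:**
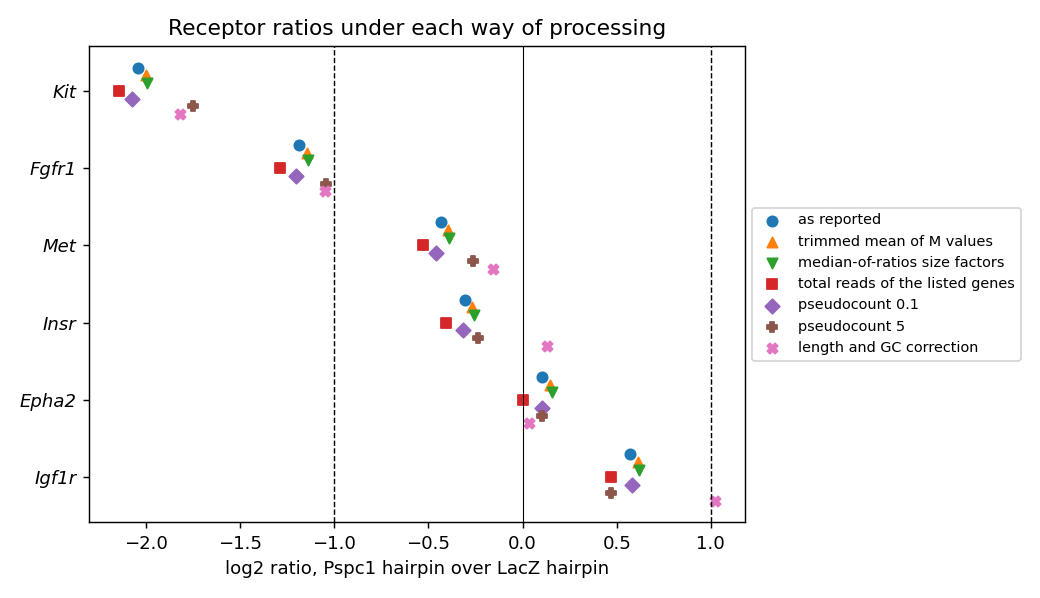
Log2 ratio of knockdown over LacZ (horizontal) for the 6 measurable members under each scaling, pseudocount and correction (symbols), with dashed lines at 2-fold. Kit stays between -2.15 and -1.75 and Fgfr1 between -1.29 and -1.04, Igf1r passes 2-fold only with the length and GC correction (1.02), and Insr changes sign only there (0.13).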

How the data were processed

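Poly-A RNA of 2 libraries, 1 per group, was sequenced, per the labels' protocols. The submitters' processing notes list Trimmomatic 0.39, HISAT2 2.1.0, featureCounts 2.0.0, DESeq 1.39.0 and build mm10, without roles. The annotation, strand setting, low-value filter and scaling formula are not given in the sources used here, which also name no aligner options. The signal values deposited by the authors were used as they stand. All (100%) were whole multiples of 1 step per library within 0.01 reads, from which the reads behind the counting intervals were inferred. Read numbers and intervals hold only if each step is 1 read. Reads without molecular identifiers are not independent molecules.

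Symbols matched 11399 of 11405 identifiers. Positions and exons came from GENCODE M21 (same build), and promoters from RefSeq (GRCm38.p6, 6 of 9 members matched). Members, lists, markers and thresholds were chosen with earlier results of these data known. Named were the members, list genes past 2-fold, up to 4 further genes per list with the largest ratio and a mean of at least 20, the 4 measurable genes (mean of 5 or more) nearest to Kit in ratio, its neighbours and markers past 2-fold. Named after their values were seen were Tek, Tyro3, Pros1, Ephb4, Ptk7, Erbb2, Ephb6, Grb2, Shc1, Ptpn11, Tal1, Lmo2, Ldb1, Adam10, Hdc, Sox18, Cdh5 and Esam. Some genes of the Ras and ERK and the PI3K and AKT lists are not reported here, and the counts and medians of those lists, chosen after values were seen, leave them out. The length and GC correction subtracts a lowess fit (fraction 0.3) on exonic length, then on GC. The alternative of counting levels per longest transcript was added after seeing the data. Steps were tested on simulated reads. No count test was run, since neither group has a replicate and the reads are inferred. Python 3.11.15, numpy 2.4.6, pandas 2.3.3, scipy 1.17.1, statsmodels 0.14.6 and matplotlib 3.10.9 were used.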

Additional observations from a re-analysis of the deposited data

How the results depend on the processing

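No paired analysis was possible because each group has 1 library and no test was run. Kit stayed at least 2-fold lower under each scaling, pseudocount and correction, with the log2 ratio smallest at -1.75 (pseudocount of 5) and at -1.82 with the length and GC correction. Both lower members fell outside the rule at a minimum mean of 50, which leaves 0, and 1 higher member appeared with the length and GC correction (Igf1r) or with no minimum (Pdgfrb). Over all genes, the 166 lower and 83 higher became 71 and 50 at a minimum of 20, 34 and 20 at 50, 306 and 149 with no minimum, and 61 and 44 with a pseudocount of 5. Lower genes numbered 261 when scaled by total reads, with 18.9% of calls higher against 33.3% as reported, and 96 with the length and GC correction (46.4% higher). Median-of-ratios scaling gave a higher share of 43.2% and trimmed-mean scaling one of 41.8%. Total-read scaling shifted the median gene by -0.10 log2, so log2 ratios near that size have no fixed sign. Kdr, Sh2b3 and Adam10 (-1.08) passed 2-fold lower with total scaling, Adam10 also with a pseudocount of 0.1 (-1.01). Depth limits Pdgfra, Pdgfrb, Axl and Kitl, with between 35 and 253 reads a library. The causes of these shifts were not tested.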
